A study of Mus musculus with 10 samples.

Results

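The NRF2 antioxidant response genes described here are 9 mouse genes picked by name: the transcription factor gene Nfe2l2, its inhibitor gene Keap1, and the effector genes Nqo1, Hmox1, Gclc, Gclm, Slc7a11, Txnrd1 and Srxn1. They were found by gene symbol among the 21513 genes of the count table, and all 9 passed the filter on low counts together with the rest of the 15740 genes tested. NRF2, the protein of Nfe2l2, is a transcription factor that KEAP1 holds in the cytoplasm and hands to a CUL3 ubiquitin ligase for degradation. Oxidants and electrophiles modify KEAP1, and NRF2 then accumulates, pairs with small MAF proteins and binds antioxidant response elements beside genes for glutathione synthesis, thioredoxin recycling, quinone reduction and heme breakdown. Because this control acts on the protein, the Nfe2l2 transcript does not measure NRF2 activity. In the heart, cells with many mitochondria rely in part on glutathione and thioredoxin to remove hydrogen peroxide.

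The study sequenced polyadenylated RNA of primary heart cells from wild-type mice of postnatal days 1 to 3, as 10 libraries with 2 in each of 5 groups. Primary cardiomyocytes (CM) were collected at day 3. Induced cardiomyocyte-like cells (iCM) were collected at day 14, carried MGT, and received ZLN005, GW501516 or dimethyl sulfoxide (DMSO, the solvent control). Cardiac fibroblasts (CF), whose labels name no MGT, were also collected at day 14. MGT is the usual name for a mix of Mef2c, Gata4 and Tbx5, which turn fibroblasts toward a muscle programme. ZLN005 is known to raise transcription of Ppargc1a, a coactivator for mitochondrial genes, and GW501516 activates the nuclear receptor PPARδ. The sources used here give no vector or promoter for MGT, no dose and no length of treatment. In every comparison with CM the day and the cell type differ together and cannot be told apart.

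Total counts were 39065969 to 61886463 a library. Values below are CPM, read counts divided by the TMM-scaled library size and set to a common total, with the SD over the 2 libraries of a group. Log2 changes come from edgeR's quasi-likelihood test and carry their standard error. A gene is called higher or lower at a Benjamini-Hochberg adjusted p under 0.05 over all genes tested. With 2 libraries a group, the values of 2 groups often do not overlap. This held for 84.2% of all genes tested between CM and CF, and for 84.9% to 86.5% between CM and each iCM group. It held for 67.3% between iCM with DMSO and CF, and for 53.5% to 61.5% between iCM groups. The iCM groups with ZLN005 and GW501516 were not tested against CF, so no such share is given for those pairs. The labels do not say whether replicates are separate cultures, so p-values measure the spread between these libraries only. Each gene has 1 estimate of the spread over all 5 groups. CF libraries therefore also enter the standard errors and calls of comparisons without CF. Chi-square per degree of freedom, which grows as 2 libraries differ beyond sampling, was 57.5 in CF and 3.33 to 6.25 in the other groups. The day 3 samples are cardiomyocytes by title, but their cell type and treatment fields read as for CF. Myh6, the alpha myosin heavy chain of heart muscle, averaged 9647 ± 7.25 CPM in these libraries and 40.2 ± 1.68 CPM in CF. The summed level of 10 cardiomyocyte genes was 27904 and 28261 CPM in CM, 4126 to 7228 CPM in the iCM libraries, and 334 and 508 CPM in CF. Of these genes Tnnt2 averaged 3139 to 4783 CPM in the iCM groups, against 4698 CPM in CM. Myl2 (1.28 to 5.30 CPM) and Myl3 (0.369 to 1.92 CPM) averaged less in every iCM group than in CF (8.27 and 4.46 CPM). Nppa did so with ZLN005 and GW501516 but not with DMSO, and the remaining genes averaged more in every iCM group than in CF. The summed level of 9 fibroblast genes was 13110 and 13086 CPM in CM, against 34867 and 38846 CPM in CF, so fibroblast genes were detected in CM as well. That sum was 9488 to 16025 CPM in the iCM libraries. Of these genes Postn averaged more in CM (1748 CPM) and in every iCM group (1086 to 1178 CPM) than in CF (754 CPM). The others averaged less in CM and in every iCM group than in CF. The CF libraries stood apart from each other in the summed level of 13 macrophage genes, with 3085 CPM in CF replicate 1 and 516 CPM in CF replicate 2. In bulk RNA, fewer cells of a type and less RNA per cell cannot be told apart.

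Promoter windows were available for 7 of the 9 genes, as 300 bases around a RefSeq start site on GRCm38.p6. They were searched on both strands for TGACNNNGC, the core letters of an antioxidant response element. Of all 32851 windows, 12.4% hold this string. Among the member genes it was found in the windows of Nfe2l2, Srxn1 and Gclm and in 1 of the 3 Txnrd1 windows, and the windows of Keap1, Nqo1 and Slc7a11 do not hold these letters. The looser form TGANNNNGC, added after the data were seen, is in 41.3% of windows. The windows of Srxn1, Gclm and 1 of Txnrd1 are shown because they are the effector windows that hold TGACNNNGC, and that of Slc7a11 because this gene was higher with GW501516. The window of Nqo1, the member with the largest change between CM and CF, holds none of the strings searched. Windows reach 250 bases before and 50 bases after the start site, and elements outside them were not searched for any gene. Capitals mark TGANNNNGC on either strand, which includes every TGACNNNGC, and in the Slc7a11 window also TGATGNAAN, a string of C/EBP-ATF elements that is in 3.95% of windows. The 2 matches of TGATGNAAN in Slc7a11 begin at -66 and -48 from the start site, and the second overlaps a match of TGANNNNGC. In the Srxn1 window (chr2:152105274-152105573, plus strand) the 4 matches begin at -158, -57, -45 and 28. The other windows are chr3:122245307-122245606 on the plus strand for Gclm, chr10:82858956-82859255 on the plus strand for Txnrd1 and chr3:50443564-50443863 on the minus strand for Slc7a11. A match is a string of letters and no evidence of binding.
Srxn1: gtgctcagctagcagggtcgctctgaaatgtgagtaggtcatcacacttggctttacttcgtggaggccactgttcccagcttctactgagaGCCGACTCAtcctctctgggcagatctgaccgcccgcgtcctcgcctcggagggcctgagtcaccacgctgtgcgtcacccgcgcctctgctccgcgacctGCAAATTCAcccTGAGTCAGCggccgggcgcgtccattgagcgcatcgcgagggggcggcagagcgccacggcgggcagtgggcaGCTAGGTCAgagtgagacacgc
Gclm: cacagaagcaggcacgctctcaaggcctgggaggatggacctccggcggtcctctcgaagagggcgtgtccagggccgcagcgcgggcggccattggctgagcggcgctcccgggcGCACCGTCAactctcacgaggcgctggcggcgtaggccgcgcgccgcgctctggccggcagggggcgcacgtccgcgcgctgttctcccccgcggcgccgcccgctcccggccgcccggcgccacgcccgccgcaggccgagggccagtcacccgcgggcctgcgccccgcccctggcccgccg
Txnrd1: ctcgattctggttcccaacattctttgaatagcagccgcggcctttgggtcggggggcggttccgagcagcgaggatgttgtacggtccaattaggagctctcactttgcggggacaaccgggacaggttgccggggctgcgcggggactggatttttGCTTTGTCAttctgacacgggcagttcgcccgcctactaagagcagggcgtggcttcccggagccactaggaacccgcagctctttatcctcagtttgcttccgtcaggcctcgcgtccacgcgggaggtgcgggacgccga
Slc7a11: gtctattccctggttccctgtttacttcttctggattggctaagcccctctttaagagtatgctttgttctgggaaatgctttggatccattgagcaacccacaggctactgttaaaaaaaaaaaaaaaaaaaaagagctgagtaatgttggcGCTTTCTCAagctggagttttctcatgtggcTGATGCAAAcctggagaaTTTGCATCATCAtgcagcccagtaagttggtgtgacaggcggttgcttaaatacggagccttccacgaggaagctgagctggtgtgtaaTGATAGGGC

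The aryl hydrocarbon receptor element core GCGTG, searched because Nqo1 is also a target of that receptor, is in 32.4% of windows. It was found in the windows of Srxn1, Gclm, Keap1 and Txnrd1 and is not among the letters of the Nqo1, Nfe2l2 and Slc7a11 windows.

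Nfe2l2 (chr2:75675513-75704641, minus strand) varied little. It had 131 and 121 CPM in CM, 134 and 137 CPM in iCM with ZLN005, 146 and 145 CPM in iCM with GW501516, 133 and 134 CPM in iCM with DMSO, and 135 and 118 CPM in CF. The GW501516 libraries were the highest, and the CM and CF libraries overlapped. Between CM and CF the change was 0.0025 ± 0.063 with a 95% interval of -0.14 to 0.14. Nfe2l2 was lower in CM than in iCM with GW501516, with a change of -0.20 ± 0.06 and an edgeR adjusted p of 0.0161. That call was lost by edgeR without CM replicate 2 (adjusted p = 0.112) and without GW501516 replicate 1 (adjusted p = 0.0605). Against iCM with ZLN005 the change was -0.10 ± 0.06 and was not called (edgeR adjusted p = 0.183), but leaving out either CF library gave an edgeR adjusted p of 0.0146 or 0.0222.

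Keap1 (chr9:21229730-21239361, minus strand), the inhibitor, had its lowest values in CM. It had 19.4 and 19.0 CPM in CM, 24.0 and 23.9 CPM in iCM with ZLN005, 25.7 and 23.2 CPM in iCM with GW501516, 21.6 and 25.4 CPM in iCM with DMSO, and 21.2 and 22.7 CPM in CF. Both CM libraries lay below every other library, the iCM groups overlapped one another, and CF overlapped those with DMSO. The change was -0.29 ± 0.09 for CM against iCM with DMSO, -0.32 ± 0.09 against iCM with ZLN005 and -0.35 ± 0.09 against iCM with GW501516, with edgeR adjusted p-values of 0.0133, 0.00826 and 0.00551 in that order. Against CF it was -0.20 ± 0.09 and was not called (edgeR adjusted p = 0.0706). By edgeR the call against iCM with DMSO was lost without CM replicate 2 (adjusted p = 0.0588) and without DMSO replicate 2 (change -0.18, adjusted p = 0.11), and that against iCM with GW501516 without GW501516 replicate 1 (adjusted p = 0.0522). The antisense gene Gm16754 covers 10.9% of the Keap1 exon bases, and with no strand setting given in the sources used here, reads of the pair cannot be told apart.

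**Figure D1:**
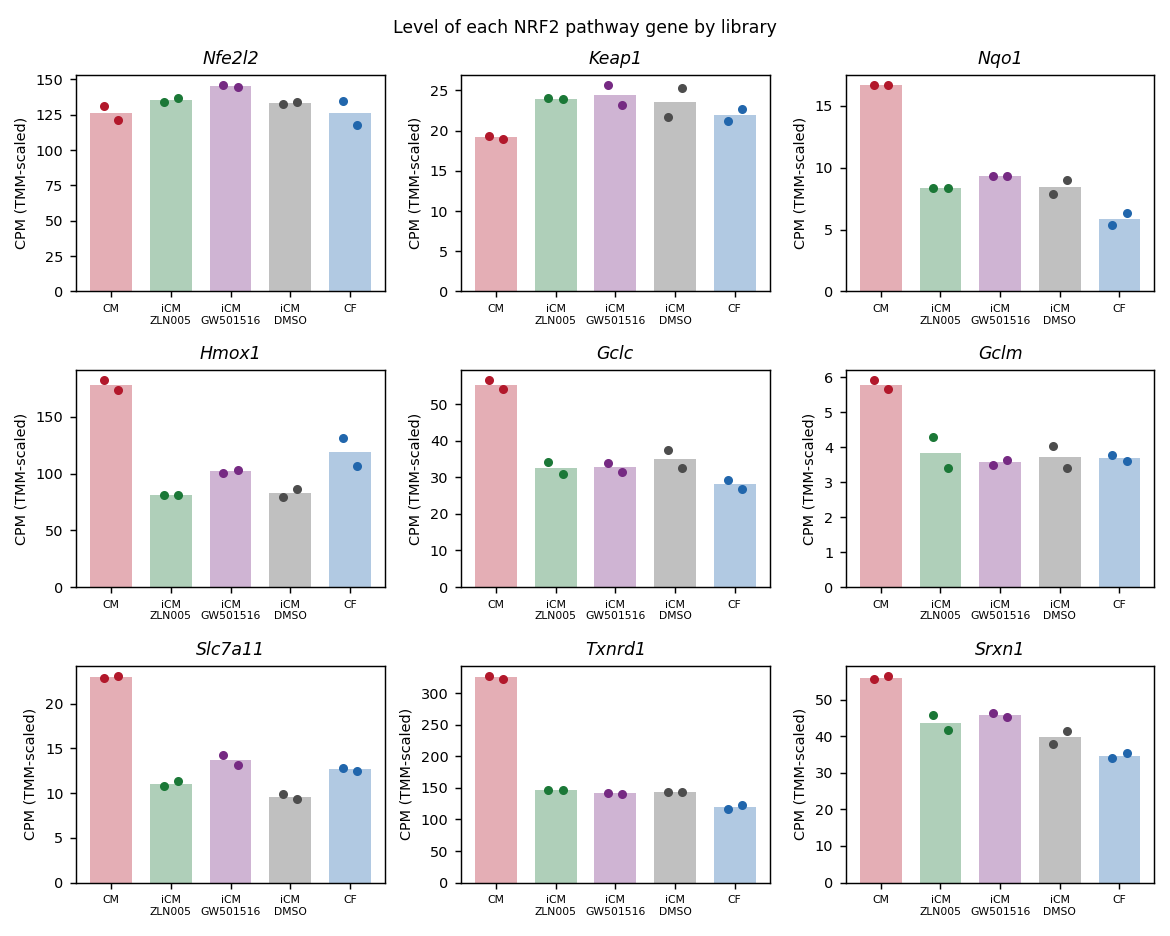
Level of the 9 genes in TMM-scaled CPM (vertical axes, each from 0) in CM, iCM with ZLN005, iCM with GW501516, iCM with DMSO and CF; bars are group means and points are the 2 libraries of a group. The 7 effector genes are highest in both CM libraries, Keap1 is lowest there at 19.4 and 19.0 CPM, and Nfe2l2 means lie between 126 and 145 CPM. Between CM and each other group, 84.2% to 86.5% of all genes tested do not overlap.

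Nqo1 (chr8:107388225-107403206, minus strand) encodes a quinone reductase that uses NADH or NADPH. It had 16.6 and 16.7 CPM in CM, 8.33 and 8.38 CPM in iCM with ZLN005, 9.35 and 9.31 CPM in iCM with GW501516, 7.87 and 8.97 CPM in iCM with DMSO, and 5.38 and 6.32 CPM in CF. CM stood above all other libraries, the iCM groups lay close together, and CF was below every iCM library. In CM the level was 2.85-fold that in CF, a log2 change of 1.51 ± 0.11 (edgeR adjusted p = 6.80e-07). Against iCM with DMSO it was 1.98-fold higher in CM (log2 change 0.98 ± 0.11).

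Txnrd1 (chr10:82833951-82897712, plus strand) encodes the cytosolic thioredoxin reductase, which passes electrons from NADPH to thioredoxin. Its levels were 328 and 323 CPM in CM, 146 and 147 CPM in iCM with ZLN005, 142 and 141 CPM in iCM with GW501516, 144 and 143 CPM in iCM with DMSO, and 117 and 123 CPM in CF. CM was far above the rest, the iCM groups sat within a few CPM of each other, and CF was lowest. The change of 1.44 ± 0.04 between CM and CF had the smallest standard error of the 9 genes and an edgeR adjusted p of 2.97e-10. Against iCM with DMSO it was 1.18 ± 0.04.

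Srxn1 (chr2:152105516-152111376, plus strand) encodes sulfiredoxin, which repairs peroxiredoxins that peroxide has over-oxidised. It had 55.6 and 56.5 CPM in CM, 45.7 and 41.6 CPM in iCM with ZLN005, 46.4 and 45.3 CPM in iCM with GW501516, 37.9 and 41.5 CPM in iCM with DMSO, and 34.1 and 35.3 CPM in CF. CM was highest and CF lowest with no overlap, while the ranges with ZLN005 and GW501516 overlapped. The change was 0.69 ± 0.06 for CM against CF and 0.29 ± 0.06 for CM against iCM with GW501516 (edgeR adjusted p = 3.15e-06 and 0.00218).

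Gclc and Gclm encode the catalytic and the modifier subunit of glutamate-cysteine ligase, the rate-limiting enzyme of glutathione synthesis. Gclc (chr9:77754535-77794485, plus strand) had 56.6 and 54.1 CPM in CM, 34.1 and 31.0 CPM in iCM with ZLN005, 34.0 and 31.5 CPM in iCM with GW501516, 37.5 and 32.6 CPM in iCM with DMSO, and 29.2 and 27.0 CPM in CF. CM stood alone at the top, the 3 iCM groups overlapped, and CF was lowest. Gclm (chr3:122245557-122270732, plus strand) had 5.90 and 5.65 CPM in CM, 4.29 and 3.39 CPM in iCM with ZLN005, 3.48 and 3.64 CPM in iCM with GW501516, 4.04 and 3.41 CPM in iCM with DMSO, and 3.76 and 3.61 CPM in CF. Only the CM libraries separated from the others for this subunit. The change between CM and CF was 0.98 ± 0.08 for Gclc and 0.65 ± 0.17 for Gclm (edgeR adjusted p = 1.67e-06 and 0.00516). Gclm rested on few reads, 144 to 267 a library. By edgeR its calls were lost against iCM with DMSO without DMSO replicate 2 (adjusted p = 0.0617) and against iCM with ZLN005 without ZLN005 replicate 2 (adjusted p = 0.0972), and Gm17494 and Gm6061 share 4.71% and 3.88% of its exon bases.

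Slc7a11 (chr3:49892526-50443614, minus strand) encodes xCT, the antiporter that brings in cystine for glutathione in exchange for glutamate. Levels were 22.8 and 23.1 CPM in CM, 10.8 and 11.4 CPM in iCM with ZLN005, 14.3 and 13.1 CPM in iCM with GW501516, 9.87 and 9.31 CPM in iCM with DMSO, and 12.8 and 12.5 CPM in CF. By library values every group was separate from the next, in the order CM, iCM with GW501516, CF, iCM with ZLN005 and iCM with DMSO. The places of the GW501516 and ZLN005 groups beside CF were not tested. In the comparisons made, 53.5% to 86.5% of all genes tested did not overlap. The change was 0.86 ± 0.08 for CM against CF and 1.26 ± 0.09 for CM against iCM with DMSO (edgeR adjusted p = 5.37e-06 and 3.41e-07).

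Hmox1 (chr8:75093621-75100589, plus strand) encodes heme oxygenase 1, which breaks heme into biliverdin, iron and carbon monoxide. It had 182 and 173 CPM in CM, 80.7 and 80.7 CPM in iCM with ZLN005, 101 and 103 CPM in iCM with GW501516, 79.6 and 86.6 CPM in iCM with DMSO, and 131 and 106 CPM in CF. CM was highest, CF came next with the widest spread of any group, and the ZLN005 libraries lay inside the range of those with DMSO. The change was 0.58 ± 0.08 for CM against CF and 1.10 ± 0.08 for CM against iCM with DMSO (edgeR adjusted p = 9.76e-05 and 8.72e-07).

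Divided by exon length, Hmox1 was the most abundant member in every group, with 101.5 CPM per kilobase in CM and 46.1 to 67.8 CPM per kilobase in the other groups. Nfe2l2 came next outside CM with 33.2 to 38.3 CPM per kilobase, while in CM Txnrd1 ranked above it at 45.9 against 33.3 CPM per kilobase. Gclc stood at 14.7 CPM per kilobase in CM and Gclm at 0.919, so the catalytic subunit transcript was the more abundant of the pair. Gclm ranked last and Slc7a11 next to last in all 5 groups.

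CM set against CF had 7 of the 9 genes higher by edgeR, where 70.7% of all genes were called (34.5% higher and 36.2% lower). These are the 7 effectors, with changes of 0.58 (Hmox1) to 1.51 (Nqo1), while Nfe2l2 and Keap1 were not called. The median change of the 9 genes was 0.69, against -0.02 over all genes tested. Against iCM with DMSO, 7 genes were higher and Keap1 was lower in CM, with 69.7% of all genes called (34.1% higher and 35.7% lower) and a median of 0.66 for the 9 genes and -0.03 for all genes tested. Against iCM with ZLN005 the count was again 7 higher and Keap1 lower (67.9% of all genes called, 34.2% higher and 33.7% lower), with medians of 0.77 and -0.01. Set against iCM with GW501516, 7 were higher and both Keap1 and Nfe2l2 were lower (67.2% of all genes called, 33.7% higher and 33.5% lower), with medians of 0.75 and -0.0039. These 4 comparisons share the CM libraries, so their values are not independent of each other. The count against CF was 8, with Keap1 called as lower, without CF replicate 1 (change -0.24) and without either DMSO library (changes of -0.20).

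**Figure D2:**
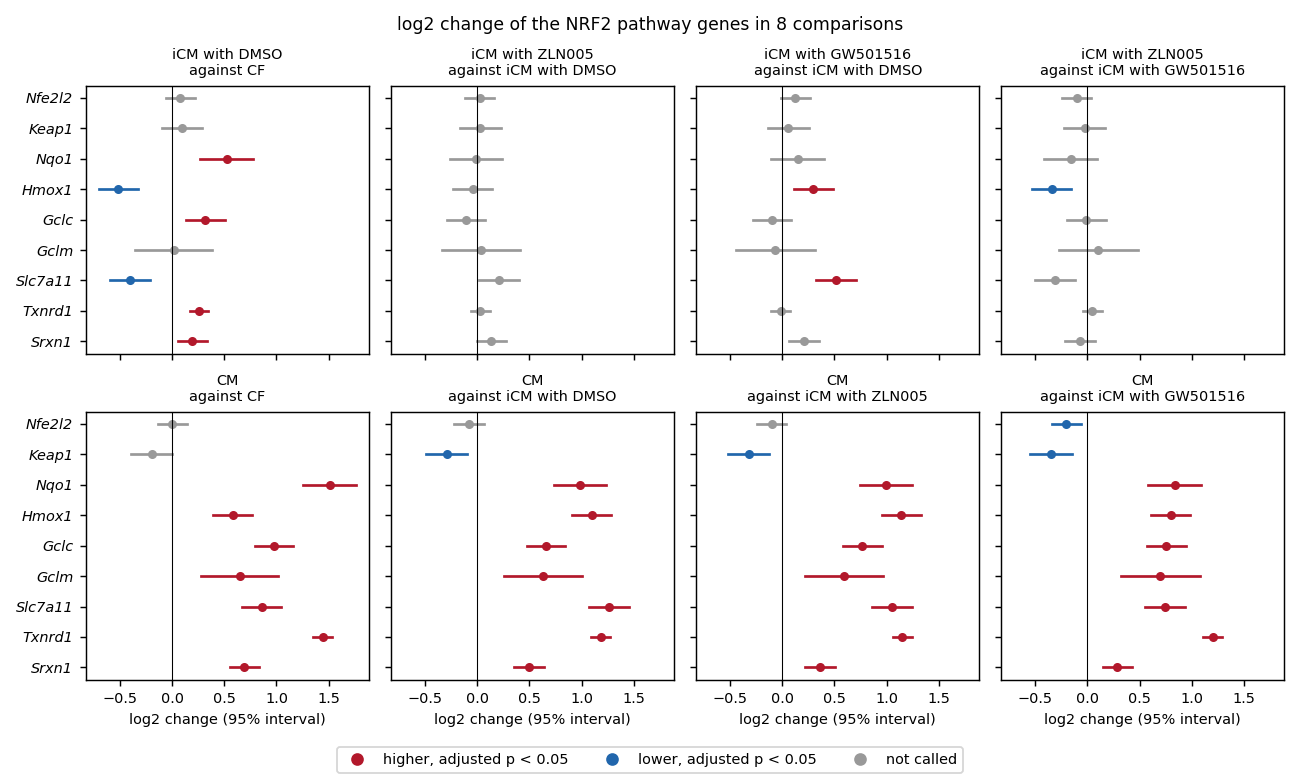
Log2 change (horizontal axes) with its 95% interval for the 9 genes in 8 comparisons, coloured by the edgeR call. In the lower row the 7 effectors lie to the right of 0 in all 4 comparisons with CM, and in the upper row the calls with GW501516 are Hmox1 at 0.30 and Slc7a11 at 0.51.

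Reprogrammed cells with DMSO differed from CF in both directions. The CF titles name neither MGT nor DMSO, so the effects of MGT and of the solvent cannot be told apart here. By edgeR 4 genes were higher and 2 were lower in iCM with DMSO, where 39.3% of all genes were called (19.9% higher and 19.5% lower). Nqo1 was higher by 0.53 ± 0.11, Gclc by 0.32 ± 0.08, Txnrd1 by 0.26 ± 0.04 and Srxn1 by 0.19 ± 0.06 (edgeR adjusted p = 0.00398, 0.0109, 0.000433 and 0.0331). Hmox1 changed by -0.51 ± 0.08 and Slc7a11 by -0.40 ± 0.09 (edgeR adjusted p = 0.000631 and 0.00368). In fold terms Nqo1 was 1.44-fold higher in iCM with DMSO, and Hmox1 was 1.43-fold and Slc7a11 1.32-fold lower. Nfe2l2, Keap1 and Gclm had changes of 0.08, 0.10 and 0.01 and were not called. The median of the 9 genes was 0.10, against -0.01 over all genes tested. In an edgeR fit of these 2 groups alone Nqo1, Gclc and Srxn1 lost their calls (adjusted p = 0.0541, 0.0596 and 0.103), as did Gclc without DMSO replicate 1 (adjusted p = 0.117) and Srxn1 when DMSO replicate 2 or any library of CM or of iCM with GW501516 was left out (adjusted p of 0.0547 to 0.192), and Nfe2l2 gained one without CF replicate 1 (change 0.20, adjusted p = 0.00234).

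Macrophages are rich in heme oxygenase 1 as they clear red cells, and their genes moved between these libraries. The summed macrophage level was 812 and 847 CPM in iCM with DMSO, against 3085 and 516 CPM in CF. Hmox1 in CF followed the same order, with 131 CPM in replicate 1 and 106 CPM in replicate 2. Without CF replicate 1 the Hmox1 change between iCM with DMSO and CF was -0.34, and without CF replicate 2 it was -0.66, called by edgeR each time (adjusted p = 1.79e-05 and 8.45e-10). In CM, where Hmox1 was highest, the macrophage sum was 29.1 and 31.1 CPM, with 8 of the 13 genes under 1 CPM on average and none at 0. In iCM with GW501516 the sum was 114.3 and 114.3 CPM, against 812 and 847 CPM in iCM with DMSO, while Hmox1 was higher with GW501516. With ZLN005 the sum was 115 and 117 CPM, and the Hmox1 ranges with ZLN005 and DMSO overlapped. The part of macrophage RNA in the level of Hmox1 was not tested.

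**Figure D3:**
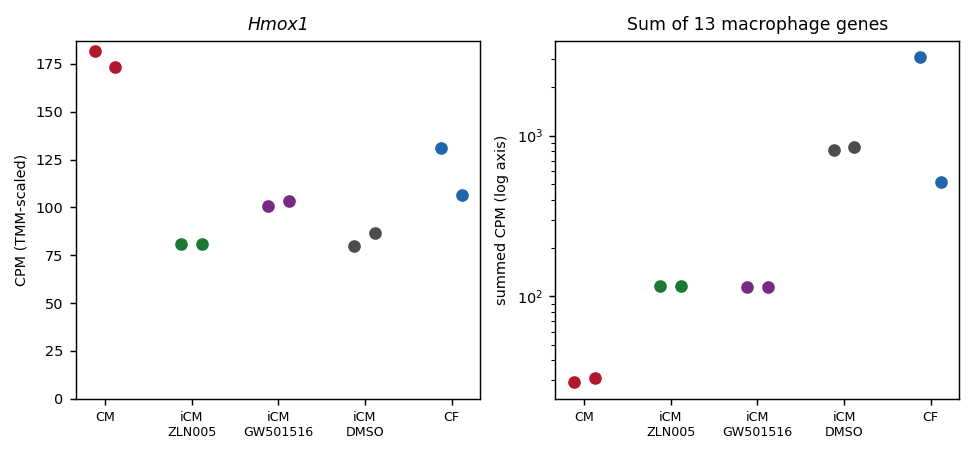
Left, Hmox1 in TMM-scaled CPM (axis from 0); right, the summed CPM of 13 macrophage genes (log axis), with 1 point for each library of the 5 groups. Hmox1 is highest in CM, at 182 and 173 CPM, where the macrophage sum is lowest, at 29.1 and 31.1 CPM, and the CF libraries differ in both panels.

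GW501516 was accompanied by a higher level of Slc7a11 in reprogrammed cells. Slc7a11 averaged 13.7 ± 0.84 CPM with GW501516 and 9.59 ± 0.39 CPM with DMSO (SD, n = 2 each), a 1.43-fold difference and a log2 change of 0.51 ± 0.09 (edgeR adjusted p = 0.0032). It was called in all 17 alternatives, with changes of 0.45 to 0.57 and adjusted p-values of 0.000143 to 0.0419. Hmox1 averaged 102 ± 1.9 CPM with GW501516 and 83.1 ± 4.9 CPM with DMSO, a change of 0.30 ± 0.08 (edgeR adjusted p = 0.0407). These 2 of the 9 genes were called, both higher, where 14.8% of all genes were called (7.8% higher and 6.96% lower). Srxn1 had a change of 0.21 ± 0.06 and was not called (edgeR adjusted p = 0.0538), and the 6 others lay between -0.10 and 0.15. The Hmox1 call held in 6 of the 17 alternatives only, and was lost when any library of CM, ZLN005, GW501516 or DMSO was left out (adjusted p of 0.0626 to 0.254). Without either CF library, and in a fit of these 2 groups alone, Srxn1 and Nfe2l2 were called as well (adjusted p of 0.0113 to 0.0265), for a count of 4, and Srxn1 was also called with RLE size factors, no low-count filter or the filter of at least 1 CPM (adjusted p of 0.043 to 0.0483), which makes 6 of the 17 alternatives.

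With ZLN005 none of the 9 genes passed the test against DMSO by edgeR, DESeq2 or limma-voom, where edgeR called 15.5% of all genes (6.64% higher and 8.84% lower). A single gene, Slc7a11, had an unadjusted p under 0.05. It averaged 11.1 ± 0.44 CPM with ZLN005 and 9.59 ± 0.39 CPM with DMSO, a change of 0.21 ± 0.09 with a 95% interval of 0.02 to 0.40 (edgeR adjusted p = 0.145). Its ranges did not overlap, as was so for 61.5% of all genes tested. Srxn1 had a change of 0.14 ± 0.06 with an interval of -0.01 to 0.28. For Hmox1 it was -0.04 ± 0.08 with an interval of -0.23 to 0.15, and for Nqo1 it was -0.01 ± 0.11 with an interval of -0.26 to 0.24, with the sign turned (0.000469) under the scaling of DESeq2. Txnrd1 was measured most closely, at 0.03 ± 0.04 with an interval of -0.06 to 0.12. The median of the 9 genes was 0.03 with ZLN005 and 0.12 with GW501516, each against the same DMSO libraries, and 0.00 and -0.01 over all genes tested.

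Set directly against GW501516, ZLN005 gave 1 called gene of the 9, where 5.06% of all genes were called (1.54% higher and 3.52% lower). Hmox1 averaged 80.7 ± 0.063 CPM with ZLN005 and 102 ± 1.9 CPM with GW501516, a change of -0.34 ± 0.08 (edgeR adjusted p = 0.0482). Slc7a11 averaged 11.1 ± 0.44 CPM with ZLN005 and 13.7 ± 0.84 CPM with GW501516, a change of -0.31 ± 0.09 that was not called (edgeR adjusted p = 0.0791), so a difference between the compounds in Slc7a11 did not pass the test. The Hmox1 call held in 5 of the 17 alternatives, and was lost when any library of CM, ZLN005, GW501516 or DMSO was left out (adjusted p of 0.0745 to 0.278). Without either CF library, and in a fit of these 2 groups alone, Slc7a11 was called too (adjusted p of 0.0266 to 0.0322).

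Genes that act with the 9 members were counted in 9 lists of 144 genes, of which 132 were in the table. Among 17 partners and regulators of NRF2, 9 were higher and 5 lower in CM than in CF, where 34.5% of all genes were higher and 36.2% lower. Their median was 0.29, against -0.02 over all genes tested. Mafk, a small MAF protein that pairs with NRF2, had 95.1 and 98.5 CPM in CM, against 49.6 and 51.4 CPM in CF, a change of 0.94 ± 0.05. Maff, another small MAF gene, changed by 0.63 ± 0.04. Cul3, the ligase scaffold that KEAP1 serves, changed by 0.50 ± 0.04, and Bach1, the repressor that competes with NRF2 for its elements, by 0.29 ± 0.05. Nfe2l1, a relative of NRF2 that controls proteasome genes, had 367 and 350 CPM in CM, against 552 and 611 CPM in CF, a change of -0.70 ± 0.06. In iCM with DMSO against CF, 8 of the 17 were higher and 1 was lower. Of all genes 19.9% were higher and 19.5% lower there. The median of the list was 0.13, against -0.01 over all genes tested. Mafk was higher by 0.47 ± 0.05 and Bach1 changed by -0.28 ± 0.05 in that comparison. Both compounds gave lower Mafk than DMSO, with changes of -0.30 ± 0.05 for ZLN005 and -0.25 ± 0.05 for GW501516 (edgeR adjusted p = 0.00178 and 0.00522), and the second call was lost without GW501516 replicate 2 (adjusted p = 0.0608).

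Thioredoxin and peroxiredoxin genes work with Txnrd1 and Srxn1. Of 11 tested, 6 were higher and 1 was lower in CM than in CF, where 34.5% of all genes were higher and 36.2% lower, so the share called was no larger than that of all genes (70.7%). Against iCM with DMSO 9 were higher and 1 was lower in CM, where 34.1% of all genes were higher and 35.7% lower. The medians were 0.53 against CF and 0.61 against iCM with DMSO. Txn1, the thioredoxin that TXNRD1 reduces, had 202 and 208 CPM in CM, against 110 and 118 CPM in CF, a change of 0.85 ± 0.08. The mitochondrial genes Prdx3, a peroxiredoxin, and Txn2, its thioredoxin, changed by 0.97 ± 0.05 and 0.82 ± 0.06. Sesn3, a sestrin, was the lower gene at -1.71 ± 0.05. Prdx1, a cytosolic peroxiredoxin, was not called at 0.10 ± 0.05. In iCM with DMSO against CF, 1 of the 11 was higher and 5 were lower, with a median of -0.05. Of all genes 19.9% were higher and 19.5% lower there.

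Around Gclc, Gclm and Slc7a11, 12 of the 31 tested glutathione genes were higher and 12 lower in CM than in CF, with a median of 0.18. That is near the background of all genes, of which 34.5% were higher and 36.2% lower. With ZLN005 against DMSO, 8 of the 31 were higher and 1 was lower, at a median of 0.16. Of all genes 6.64% were higher and 8.84% lower there. With GW501516 against DMSO, 9 were higher and 1 was lower, at a median of 0.12. Of all genes 7.8% were higher and 6.96% lower there. Slc3a2, the heavy chain that carries xCT to the membrane, had 214 and 208 CPM in CM, against 136 and 131 CPM in CF, a change of 0.67 ± 0.04. Gsr, glutathione reductase, changed by 0.50 ± 0.07. Among transferases Gstm2 changed by -2.14 ± 0.06, Gstt1 by -3.63 ± 0.13 and Mgst3 by 1.89 ± 0.09. Gss, the enzyme that completes glutathione, held 19 and 12 reads in CM and 2 to 19 reads in the other libraries. The annotation and the treatment of reads with several matches were not stated, so these few reads may not measure the Gss transcript level. Transferase and ferritin genes have close copies in the genome, so their counts are uncertain where reads match more than 1 copy.

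Slc7a11 is also a target of ATF4, a factor induced by amino acid shortage. All 15 tested genes of the ATF4 list were called between CM and CF, 9 higher and 6 lower, beside 70.7% of all genes called, with a median of 0.73. Psat1, a serine synthesis enzyme, changed by 2.92 ± 0.06, Atf4 itself by 0.98 ± 0.05, and Chac1, which degrades glutathione, by 1.81 ± 0.11. Among the 6 lower genes were Ddit4 at -1.84 ± 0.09, Atf5 at -1.51 ± 0.07 and Ddit3 at -0.92 ± 0.07, so the list was split. With GW501516, 5 of the 15 were higher and 1 was lower than with DMSO, where 7.8% of all genes were higher and 6.96% lower, at a median of 0.16 against -0.01 over all genes. Atf4 averaged 199 ± 1.26 CPM with GW501516 and 170 ± 10.4 CPM with DMSO, a change of 0.23 ± 0.05. Chac1 changed by 0.58 ± 0.11 and Ddit3, a stress factor downstream of ATF4, by 0.49 ± 0.07. With ZLN005, 4 were higher and 2 lower, where 6.64% of all genes were higher and 8.84% lower, at a median of 0.08 against 0.00 over all genes. The changes with ZLN005 were 0.25 ± 0.05 for Atf4, 0.50 ± 0.11 for Chac1 and 0.59 ± 0.07 for Ddit3. Slc3a2, the partner of Slc7a11, was called with neither compound, at 0.06 ± 0.04 with GW501516 and 0.08 ± 0.04 with ZLN005. The part of ATF4 in the level of Slc7a11 was not tested. By edgeR the Atf4 and Chac1 calls were lost when a single library was left out: with GW501516, Atf4 without either GW501516 library or DMSO replicate 1 (adjusted p of 0.0991 to 0.175) and Chac1 without GW501516 replicate 1 or DMSO replicate 1 (0.0674 and 0.0686). With ZLN005, Atf4 lost its call without ZLN005 replicate 2 or DMSO replicate 1 (0.0515 and 0.102) and Chac1 without either ZLN005 library or DMSO replicate 1 (0.0595 to 0.122).

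Of 13 tested heme and iron genes beside Hmox1, 8 were lower and 3 higher in CM than in CF, where 36.2% of all genes were lower and 34.5% higher, with a median of -0.44. Fth1, the ferritin heavy chain, which stores iron that heme breakdown releases, had 539 and 533 CPM in CM, against 1602 and 1177 CPM in CF, a change of -1.37 ± 0.11. Slc40a1, the iron exporter, changed by -2.17 ± 0.09. Tfrc, the transferrin receptor that takes up iron, had 275 and 277 CPM in CM, against 41.0 and 19.0 CPM in CF, a change of 3.20 ± 0.26. CF replicate 1, with the higher macrophage sum, had the higher Fth1 and Tfrc of the 2 CF libraries, and the part of macrophage RNA in them was not tested. Alas1, the first enzyme of heme synthesis, was higher than with DMSO by 0.47 ± 0.05 with GW501516 and by 0.27 ± 0.05 with ZLN005.

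Of 17 other detoxification and electrophile response genes tested, 4 were higher and 12 lower in CM than in CF, where 34.5% of all genes were higher and 36.2% lower, with a median of -0.79. Ephx1, the microsomal epoxide hydrolase, had 76.8 and 80.8 CPM in CM, against 336 and 378 CPM in CF, a change of -2.18 ± 0.06. The aldehyde dehydrogenase genes Aldh1a1 and Aldh3a2 changed by -3.59 ± 0.11 and -1.13 ± 0.05. Of 11 tested NADPH supply genes, 3 were higher and 4 lower, near the background of 70.7% of all genes called, with Mthfd2 at 1.89 ± 0.06, Idh2 at 1.48 ± 0.07 and Idh1 at -0.79 ± 0.05. Of 8 superoxide and peroxide genes, 2 were higher and 4 lower, also near that background, with Sod3 at -7.81 ± 0.10, Nox4 at -2.86 ± 0.09 and the mitochondrial Sod2 at 1.09 ± 0.05.

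Both compounds gave lower Nox4, a NADPH oxidase that makes hydrogen peroxide, than DMSO, at -1.72 ± 0.09 with ZLN005 and -0.78 ± 0.09 with GW501516, and the compounds differed by -0.95 ± 0.09 (edgeR adjusted p = 0.000136). Cat, which encodes catalase, changed by 0.51 ± 0.05 with GW501516 against DMSO and by -0.58 ± 0.05 with ZLN005 against GW501516. In the list of the aryl hydrocarbon receptor, which holds Nqo1 and Nfe2l2 too, ZLN005 gave 3 lower genes of 9 against DMSO, where 8.84% of all genes were lower. GW501516 gave 1 higher and 2 lower genes of the 9, where 7.8% of all genes were higher and 6.96% lower. Cyp1b1, a cytochrome induced by that receptor, had 16.4 and 16.3 CPM with ZLN005, against 79.1 and 78.2 CPM with DMSO, a change of -2.27 ± 0.07. Ahrr, the receptor's repressor, changed by -2.07 ± 0.26, and Cyp1a1 held 0 and 2 reads with ZLN005, against 28 and 32 reads with DMSO. With GW501516, Cyp1b1 averaged 56.6 CPM and Ahrr 0.989 CPM, against 78.6 and 2.30 CPM with DMSO. Nqo1, which this receptor can also induce, had a change of -0.01 with ZLN005 against DMSO. The part of this receptor in the level of Nqo1 was not tested.

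**Figure D4:**
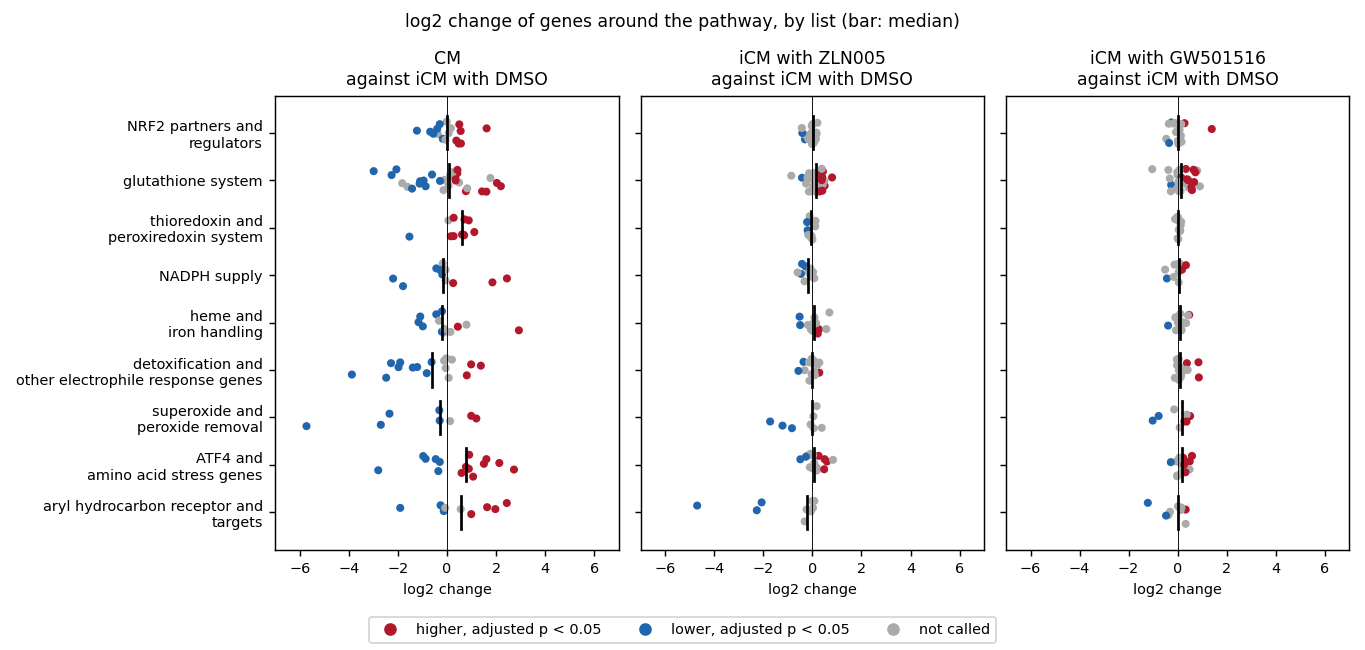
Log2 change (horizontal axes) of the tested genes of 9 lists, coloured by the edgeR call, with a bar at each list's median, for CM, iCM with ZLN005 and iCM with GW501516, each against iCM with DMSO. In CM the thioredoxin and peroxiredoxin list has a median of 0.61 and the detoxification list one of -0.63; the lowest point with ZLN005 is Cyp1a1, whose position depends on the prior count since the ZLN005 libraries held 0 and 2 reads.

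Over the 10 libraries, the gene whose log2 level ran most like each member other than Gclm was found among 10417 genes with a mean of at least 5 CPM. For Txnrd1 it was Antxr2 (Pearson r = 0.999), for Nqo1 Mlf2 (r = 0.996), for Srxn1 Uqcc1 (r = 0.995), and for Slc7a11 Acads (r = 0.985). For Gclc it was Nrap (r = 0.984), a sarcomere gene, and for Hmox1 Rpl28 (r = 0.981). Keap1 was most like Mvb12a (r = 0.96) and Nfe2l2 most like Frmd8 (r = 0.927), the lowest value of these 8 members. The next in rank was Apobec2 for Txnrd1 (r = 0.998), Pygm for Nqo1 (r = 0.992), Psmc5 for Srxn1 (r = 0.993), Pim1 for Slc7a11 (r = 0.984), Sgms2 for Gclc (r = 0.982), D16Ertd472e for Hmox1 (r = 0.98), Iscu for Keap1 (r = 0.952) and Syk for Nfe2l2 (r = 0.894). Among the members themselves, Gclc and Txnrd1 were the most alike (r = 0.967), while Nfe2l2 had r of -0.42 to 0.04 with the 7 effectors. These values describe 10 libraries, and those of a group share cell type and treatment, so the points are not independent.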

How the data were processed

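Gene counts of 10 libraries were analysed as the authors deposited them. Per the submitters' processing notes, Trimmomatic 0.36, HISAT2, featureCounts of Subread 1.5.1 and SAMtools were used with mm10, and per the labels' protocols libraries came from 2 ug of total RNA with a TruSeq kit. The annotation, strand setting and treatment of reads with several matches were not stated; exon lengths and coordinates are from GENCODE M21 on GRCm38. Total counts were 39065969 to 61886463 a library.

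Counts were tested with edgeR 4.0.16 (R 4.3.3) in 1 quasi-likelihood fit over all 5 groups, with TMM scaling, filterByExpr and Benjamini-Hochberg adjustment over 15740 genes. The 17 alternatives were DESeq2 1.42.0, limma-voom (limma 3.58.1), RLE size factors, no low-count filter, at least 1 CPM in 2 libraries, only the groups compared, a replicate block, and leaving out each library. A standard error is the absolute log2 change divided by the root of F. The script was tested on simulated data. Log2 CPM for likeness used a prior count of 2. Figures were drawn with matplotlib 3.10.9.

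The 9 members and the 9 lists were chosen with earlier results of these data known. All members are named in every comparison. For lists, up to 3 called genes with the smallest p were named, plus genes whose role lies beside a member; for likeness, the 2 genes with the highest r and a mean of at least 5 CPM. The likeness of Gclm is not reported here. The motifs TGANNNNGC and TGATGNAAN were added after the data were seen. Promoter windows are from RefSeq on GRCm38.p6. 12 listed genes were not analysed here, and 4 more did not pass the filter.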

Additional observations from a re-analysis of the deposited data

How the results depend on the processing

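Across the 17 alternatives, the members' values kept their direction and their side of the threshold in 1135 cases, lost a call in 39, gained one in 19 and turned sign in 31, all of the last in changes that were not called. The 7 effectors stayed higher in CM in all 4 comparisons under all alternatives except for the Gclm calls named above, and Slc7a11 stayed higher with GW501516 in all 17. The count of members called between iCM with DMSO and CF was 3 in a fit of only the groups compared. Between GW501516 and DMSO it was 1 with limma-voom, 4 with only the groups compared and 1 to 4 with a library left out. Between ZLN005 and GW501516 it was 0 with limma-voom, RLE size factors or the filter of at least 1 CPM, 2 with only the groups compared and 0 to 2 with a library left out. The replicate numbers did not pair the libraries, with correlations of same-numbered deviations between groups of -0.0032 to 0.040, and a replicate block gave 1 call between GW501516 and DMSO and 0 between ZLN005 and GW501516; the cause was not tested for any of these. Log2 values of Nqo1 between ZLN005 and DMSO were 0.000469 with DESeq2 and 5.5e-05 with RLE size factors, and those of Nfe2l2 between CM and CF were -0.0193 with no filter and -0.00647 with only the groups compared. With a library left out, the lone sample of its group is assumed to vary like the other groups, and changes that were not called turned sign as follows. For iCM with DMSO against CF the changes ran from -0.118 to 0.14 for Gclm, -0.0123 to 0.203 for Keap1 and -0.0161 to 0.198 for Nfe2l2. For iCM with ZLN005 against iCM with DMSO the changes ran from -0.0996 to 0.0912 for Nqo1, -0.129 to 0.209 for Gclm, -0.0775 to 0.153 for Keap1 and -0.10 to 0.0248 for Hmox1. For iCM with GW501516 against iCM with DMSO the changes ran from -0.0534 to 0.173 for Keap1, -0.194 to 0.0072 for Gclc and -0.184 to 0.0637 for Gclm. For iCM with ZLN005 against iCM with GW501516 the changes ran from -0.064 to 0.274 for Gclm, -0.0743 to 0.0649 for Gclc, -0.135 to 0.00143 for Srxn1 and -0.0954 to 0.0511 for Keap1. For CM against CF the changes ran from -0.0984 to 0.112 for Nfe2l2. Over all genes, 2437 were called between ZLN005 and DMSO (4477 with only the groups compared, 1092 to 4271 with a library left out), 2323 between GW501516 and DMSO (4342, 955 to 4212) and 796 between ZLN005 and GW501516 (2413, 344 to 2145). Gclm had the fewest reads of the members and the largest standard errors.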
